A study of Bos taurus with 16 samples.

Results

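Zinc and manganese transporters of the SLC39 and SLC30 families were followed in liver biopsies of 16 dairy cows, taken at week 1 postpartum. The 10 genes described are the importers *SLC39A14*, *SLC39A8*, *SLC39A5*, *SLC39A4*, *SLC39A1* and *SLC39A10*, the endoplasmic reticulum (ER) zinc release channel *SLC39A7*, the exporters *SLC30A1* and *SLC30A10*, and *SLC30A5*, which loads zinc into the secretory pathway. They were taken by symbol from the 20011 gene symbols, on 20421 transcript clusters, of a whole-transcript array. A transcript cluster is a set of probes for a gene, and its value is a log2 signal after robust multichip average (RMA) normalization. All 10 symbols were found, 9 with 1 cluster each. *SLC39A8* had 2 clusters, and the one with the higher mean signal over all cows stood for the gene. That cluster was chosen by its mean log2 signal over the 16 cows, the only measured value in the rule. The list itself was drawn up when the differences of *SLC39A14* and *SLC30A1* between the groups were already known, so the counts over the 10 genes are a description.

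All animals were female, multiparous Holstein cows on the same total mixed ration, and none of the cows selected had needed medical treatment. From the untreated cows of a herd of 30, the study selected 8 with high and 8 with low hepatic *FGF21* expression, called *FGF21* high cows and *FGF21* low cows here, with 1 array per cow. The groups thus differ by selection and not by treatment. Whole biopsies were used, so a lower signal from fewer cells of a type and from less RNA per cell cannot be told apart. Of the 16 arrays, 4 had a wider spread of signals around the median of all arrays than the rest (high replicates 1 and 6, low replicates 1 and 2). Without them the log2 difference was 0.46 for *SLC39A14*, 0.24 for *SLC30A1* and -0.25 for *SLC39A8*, against 0.47, 0.28 and -0.23 with all cows, and 1 in place of 2 genes exceeded a fold change of 1.2.

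Zinc is moved by families of opposite direction. SLC39 (ZIP) proteins bring zinc into the cytosol, from outside the cell or from organelles, and SLC30 (ZnT) proteins take it out of the cytosol, across the plasma membrane or into organelles. In liver, *SLC39A14* and *SLC39A8* also carry manganese and iron, *SLC30A10* exports manganese towards the bile, and a rise of zinc in the cytosol switches on *SLC30A1* and the metallothioneins, small zinc-binding proteins, through the transcription factor MTF1. In mice and humans, *SLC39A14* is also switched on by interleukin 6 during the acute phase response, when zinc and iron move from plasma into the liver. In the annotation of the array, all 10 genes carry a biological process term that names zinc, and only *SLC30A10* has one that names manganese. The 10 genes lie on 9 chromosomes, with *SLC30A1* and *SLC30A10* both on chromosome 16. For all 10, the RefSeq accession of the cluster carries the same symbol in the reference table of ARS-UCD2.0.

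*SLC39A14* was higher, *SLC30A1* was higher and *SLC39A8* was lower in *FGF21* high cows, each by less than 1.4-fold, and the other 7 transporters differed by less than their spread between cows. At an unadjusted p under 0.05 by limma, 2 of the 10 genes were higher, against 2.89 percent of all clusters, and 1 was lower, against 4.52 percent. Both higher genes also exceeded a fold change of 1.2, against 1.29 percent of all clusters. After Benjamini-Hochberg adjustment over all 20421 clusters, 0 of the 10 genes passed at 0.05 by limma and 0 by the methods' t-test, against 0.0294 percent of clusters by limma. The groups overlapped in all 10 genes, while 0.0539 percent of all clusters did not overlap. The difference was above 0 in 7 of the 10 genes, against 43.4 percent of all clusters, and its median was 0.06 on the log2 scale, against -0.02 over all clusters.

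**Figure D1:**
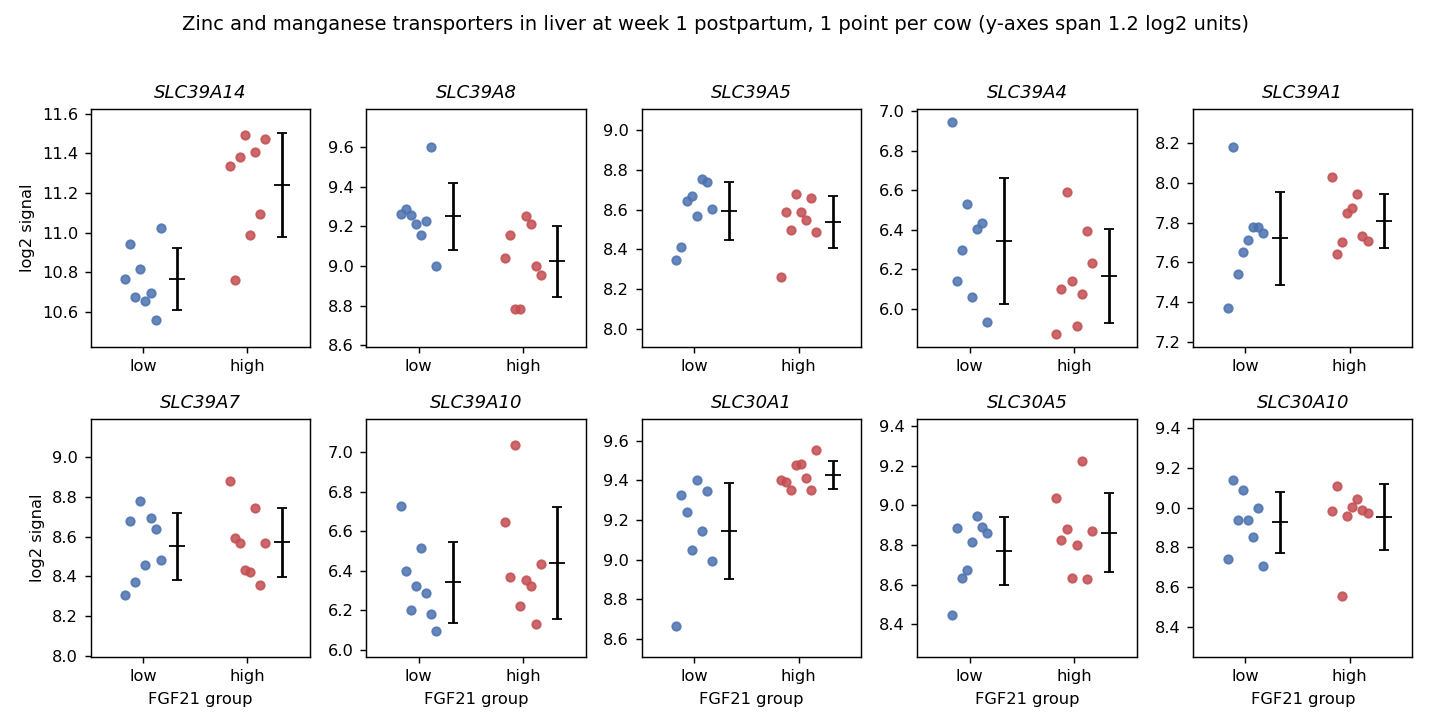
Log2 signal of the 10 transporters in each of 8 *FGF21* low cows (blue) and 8 *FGF21* high cows (red), in the order of the replicate numbers, with the mean and SD beside the points. *SLC39A14* and *SLC30A1* sit higher in *FGF21* high cows and *SLC39A8* lower, and the points of the groups overlap in every panel.

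*SLC39A14*, which brings zinc, iron and manganese into hepatocytes, had the largest difference of the 10 genes. Its log2 signal in *FGF21* high cows was 11.33, 10.76, 11.38, 11.49, 10.99, 11.40, 11.09 and 11.47 in replicates 1 to 8. In *FGF21* low cows it was 10.77, 10.94, 10.67, 10.82, 10.65, 10.69, 10.56 and 11.02. The *FGF21* high cows exceeded the highest *FGF21* low cow in 6 of 8 cases, and replicate 2, at 10.76, lay below the mean of *FGF21* low cows. The means were 11.24 ± 0.26 (SD, n = 8) and 10.77 ± 0.16 (n = 8), a log2 difference of 0.47 (standard error 0.10, 95% interval 0.26 to 0.69) or 1.39-fold, with an adjusted p of 0.201 by limma. Without high replicate 2 the difference was 0.54 and the adjusted p 0.0411, and over all 16 fits that left out 1 cow the adjusted p was 0.0411 to 0.393. Its 21 probes are annotated to chromosome 8, 70186539 to 70237647, plus strand. For this and the other positions, the genome build is not stated in the sources read.

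*SLC39A8*, the closest relative of *SLC39A14*, which in mice takes manganese back from the bile, differed in the opposite direction. The main cluster read 9.04, 9.16, 8.79, 8.78, 9.25, 9.21, 9.0 and 8.96 in replicates 1 to 8 of *FGF21* high cows. In *FGF21* low cows it read 9.26, 9.29, 9.26, 9.21, 9.16, 9.23, 9.60 and 9.0. Low replicate 7 was the highest of all cows, and 7 of the 8 *FGF21* high cows lay below the mean of *FGF21* low cows. The log2 difference was -0.23 (standard error 0.09, 95% interval -0.41 to -0.04, means 9.02 ± 0.18 and 9.25 ± 0.17, SD, n = 8 each), with an adjusted p of 0.580 by limma. The other cluster of the gene, annotated to chromosome 6, 23815411 to 23816411, upstream of the main cluster at 23847376 to 23900037 on the plus strand, also had a lower signal in *FGF21* high cows. It averaged 6.61 ± 0.07 against 6.76 ± 0.11 (SD, n = 8 each), with all 8 *FGF21* high cows below the mean of *FGF21* low cows (log2 difference -0.15, standard error 0.06, adjusted p = 0.629 by limma).

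*SLC30A1*, the zinc exporter of the plasma membrane, was higher in *FGF21* high cows, where its values lay closer together. There it read 9.40, 9.39, 9.35, 9.47, 9.48, 9.41, 9.35 and 9.55 in replicates 1 to 8. In *FGF21* low cows it read 8.67, 9.32, 9.24, 9.05, 9.40, 9.15, 9.35 and 8.99. The SD was 0.07 in *FGF21* high cows and 0.24 in *FGF21* low cows, where replicate 1, 1 of the 4 widest arrays, was lowest. Without that cow the SD of *FGF21* low cows was 0.16 (n = 7). Whether the SD differs between the groups was not tested. All 8 *FGF21* high cows lay above the mean of *FGF21* low cows, and 7 of the 8 *FGF21* low cows lay below the lowest *FGF21* high cow. The log2 difference was 0.28 (standard error 0.09, 95% interval 0.10 to 0.47), or 1.22-fold, with an adjusted p of 0.487 by limma. Without low replicate 1 it was 0.21, the smallest value of the 16 fits that left out 1 cow. Annotated coordinates of the cluster are 73764976 to 73769214 on chromosome 16.

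The second exporter, *SLC30A10*, which carries manganese out of hepatocytes in mice and humans, had nearly the same mean in both groups. Its log2 signal ran from 8.56 over a median of 8.99 to 9.11 in *FGF21* high cows and from 8.71 over 8.94 to 9.14 in *FGF21* low cows. High replicate 3, at 8.56, was the lowest of all cows, with the remaining 7 of that group between 8.96 and 9.11. The difference was 0.03 (95% interval -0.15 to 0.20, adjusted p = 0.973 by limma).

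*SLC39A5* and *SLC39A4*, known in mice mainly from gut and pancreas, gave log2 differences of -0.05 and -0.18. *SLC39A5* ran from 8.26 over 8.57 to 8.68 in *FGF21* high cows and from 8.35 over 8.62 to 8.76 in *FGF21* low cows (95% interval of the difference -0.21 to 0.10, adjusted p = 0.920 by limma). *SLC39A4*, the importer whose loss causes inherited zinc deficiency in humans, ran from 5.88 over 6.12 to 6.59 and from 5.93 over 6.35 to 6.94 (95% interval -0.44 to 0.09, adjusted p = 0.796 by limma). The within-group SD of *SLC39A4*, 0.28, was the largest of the 10 genes, and low replicate 1 was highest in *SLC39A4* while it was lowest in *SLC30A1*, *SLC39A1*, *SLC39A7* and *SLC30A5*, over all 16 cows.

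*SLC39A1* and *SLC39A10*, importers of the plasma membrane, gave differences of 0.09 and 0.10. *SLC39A1* ran from 7.64 over 7.79 to 8.03 in *FGF21* high cows and from 7.37 over 7.73 to 8.18 in *FGF21* low cows (95% interval -0.11 to 0.28, adjusted p = 0.883 by limma). *SLC39A10*, which MTF1 represses in mice when zinc is ample, ran from 6.13 over 6.36 to 7.03 and from 6.10 over 6.31 to 6.73 (95% interval -0.14 to 0.34, adjusted p = 0.904 by limma). Highest in its group was high replicate 3 for *SLC39A10*, the same cow that was lowest for *SLC30A10*.

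The transporters of internal membranes did not separate the groups. *SLC39A7*, which releases zinc from the ER, ran from 8.36 over 8.57 to 8.88 in *FGF21* high cows and from 8.31 over 8.56 to 8.78 in *FGF21* low cows. Its difference was 0.02 (95% interval -0.16 to 0.20, adjusted p = 0.981 by limma). *SLC30A5*, which supplies zinc to enzymes in the Golgi apparatus, ran from 8.63 over 8.85 to 9.23 and from 8.45 over 8.84 to 8.95. Its difference was 0.09 (95% interval -0.10 to 0.28, adjusted p = 0.871 by limma). For both genes the interval leaves out a difference as large as that of *SLC39A14*.

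The rest of the families showed no difference of this size. Of the 24 genes named *SLC39A1* to *SLC39A14* and *SLC30A1* to *SLC30A10*, 23 had a cluster, and *SLC30A8* is not analysed here. Among the 13 measured genes outside the 10, 0 had an unadjusted p under 0.05 by limma and 0 by the methods' t-test, and 0 passed after adjustment. Their log2 differences ran from -0.19 for *SLC39A12* to 0.16 for *SLC30A7*, a partner of *SLC30A5* in the secretory pathway, with a median of -0.05 and adjusted p values of 0.763 or more by limma. *SLC39A2* passed without adjustment only after the 4 arrays with the widest spread were left out (0.20, adjusted p = 0.765 by limma), and *SLC39A12* only without high replicate 5 (-0.25, adjusted p = 0.657 by limma). The mean signals of *SLC39A2* (5.28) and *SLC39A12* (4.49) lay below the median of 6.28 over all clusters.

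**Figure D2:**
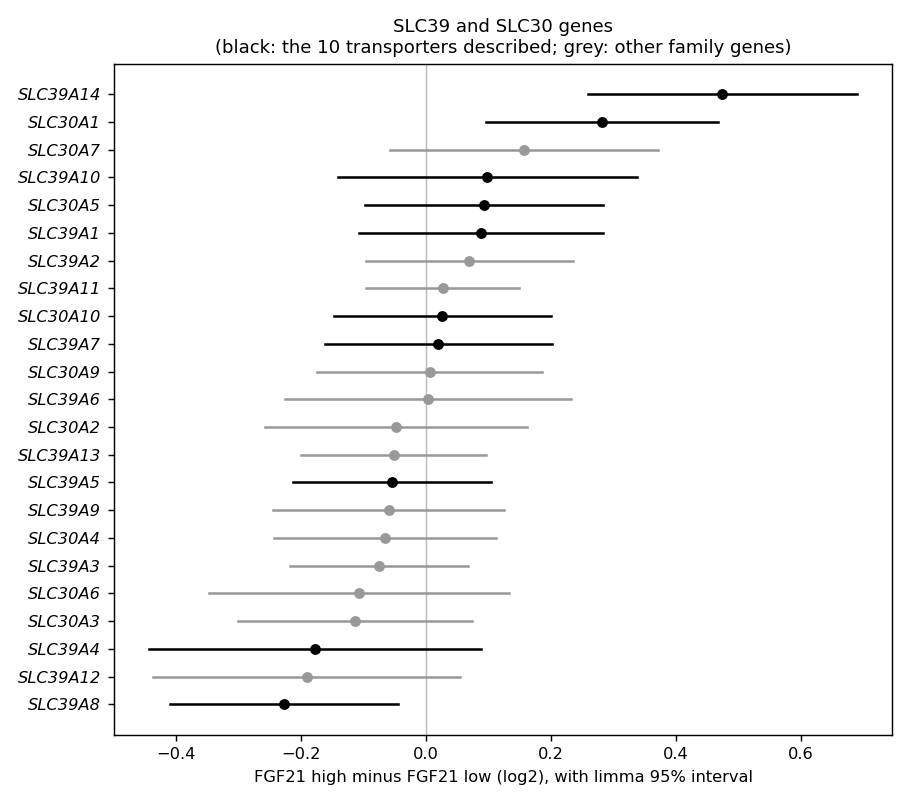
Difference of the mean log2 signal between the *FGF21* high and *FGF21* low cows for 23 SLC39 and SLC30 genes, with 95% intervals from limma. The 10 transporters described are black and the other 13 family genes grey. The interval leaves out 0 for *SLC39A14* (0.26 to 0.69), *SLC30A1* (0.10 to 0.47) and *SLC39A8* (-0.41 to -0.04), without adjustment for the number of genes.

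Genes that store and sense zinc differed over a wider range in the same cows. Of 6 such genes, 3 were higher and 1 was lower at an unadjusted p under 0.05, and 0 passed after adjustment by limma. Of all clusters, 2.89 percent were higher and 4.52 percent lower at that unadjusted threshold. *MT1A*, a metallothionein, averaged 12.11 ± 0.68 in *FGF21* high cows and 10.71 ± 1.29 in *FGF21* low cows (SD, n = 8 each, adjusted p = 0.484 by limma), so its SD too was smaller in *FGF21* high cows. *MT1E* and *MT2A* had log2 differences of 1.84 and 0.92 and *MT4*, a metallothionein of skin, one of -0.15. The mean signal of *MT4*, 5.55, lay below the median of 6.28 over all clusters. *MTF1* itself gave 0.11 (adjusted p = 0.785 by limma). The metallothioneins are genes that the study names from these cows, so they are no independent evidence of a direction.

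Within each group, 13 relations were set up, *MT1A* with each of the 10 transporters and 3 others, and none of the 26 passed after adjustment for the 26, with lowest adjusted values of 0.352 for Pearson's r and 0.319 for Spearman's ρ. *SLC30A1* went with *MT1A* at r = 0.65 and ρ = 0.76 in *FGF21* high cows (exact permutation p = 0.0847 and 0.0368, adjusted p = 0.420 and 0.319). In *FGF21* low cows these were r = 0.56 and ρ = 0.38 (exact permutation p = 0.135 and 0.360, adjusted p = 0.502 and 0.751). Without the 2 cows farthest from the median of *MT1A*, r was 0.72 and 0.69, so the sign and size were alike with and without them. *SLC39A4* ran against *MT1A* in *FGF21* low cows, with r = -0.78 and ρ = -0.76 (exact permutation p = 0.0156 and 0.0368, adjusted p = 0.352 and 0.319, r = -0.91 without 2 cows). In *FGF21* high cows it gave r = -0.47 and ρ = -0.21 (exact permutation p = 0.237 and 0.619, adjusted p = 0.684 and 0.751). *SLC39A14* and *MT1A* gave r = 0.61 and ρ = 0.76 in *FGF21* high cows (exact permutation p = 0.0970 and 0.0368, adjusted p = 0.420 and 0.319), and r = 0.14 and ρ = -0.05 in *FGF21* low cows (exact permutation p = 0.734 and 0.935). Whether these relations differ between the groups was not tested.

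*SLC39A14* and *SLC30A1*, both higher in *FGF21* high cows, had r = 0.30 with each other in *FGF21* high cows and -0.36 in *FGF21* low cows (ρ = 0.38 and -0.64, exact permutation p = 0.483 and 0.389 for r, 0.360 and 0.0962 for ρ). Without 2 cows each, r was 0.69 and -0.71, so the sign differed between the groups in both cases. *SLC39A14* had r = 0.18 and 0.09 with *FGF21* itself (ρ = 0.19 in both, exact permutation p = 0.659 and 0.821 for r and 0.665 for ρ in both). Without 2 cows each, these were 0.59 and -0.67, so the sign then differed between the groups. The cows were selected on *FGF21*, which limits its range within each group. A lack of relation with *FGF21* therefore cannot be read from these values.

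Within each group, *SLC39A14* was set against *HP* and against a mean of acute phase genes. Other single acute phase genes were not set against it. With *HP*, the haptoglobin gene, r was 0.79 in *FGF21* high cows (ρ = 0.45, exact permutation p = 0.0271 and 0.267, adjusted p = 0.352 and 0.751), and this rests on replicates 2 and 7, since r was -0.13 without them. In *FGF21* low cows r was 0.65 (ρ = 0.62, exact permutation p = 0.0851 and 0.115, r = 0.56 without 2 cows). With the mean log2 signal of 12 acute phase genes, a measure added after the data were seen, r was 0.86 in *FGF21* high cows and 0.83 in *FGF21* low cows (ρ = 0.88 and 0.79). The exact permutation p was 0.0111 and 0.0116 for r and 0.00724 and 0.0279 for ρ, and the adjusted p was 0.267 and 0.267 for r and 0.257 and 0.383 for ρ, over the 96 relations of this kind. Without the 2 cows farthest from the median it was 0.67 and 0.60. High replicate 2, the cow of its group with the lowest *SLC39A14*, was also lowest in that mean (9.49), and the highest *SLC39A14* among *FGF21* low cows, in replicate 8, came with the highest mean (10.52). The genes were not scaled, so those that vary most weigh most in the mean. *HP* had an SD of 1.79 in *FGF21* high and 2.22 in *FGF21* low cows, *SAA3* 1.36 and 1.19, and *CRP* 0.16 and 0.14. The list also holds signaling genes such as *SOCS3* and *IL6R*. A relation of all 12 genes with *SLC39A14* is therefore not shown.

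Between the groups, 4 of the 12 acute phase genes were higher at an unadjusted p under 0.05 by limma, against 2.89 percent of all clusters, and 0 were lower, against 4.52 percent. Of these, *LBP* had a difference of 0.74 (standard error 0.25) and *SAA4* one of 0.71 (standard error 0.28), at adjusted p values of 0.537 and 0.600 by limma. *SAA2* and *ORM1* gave 0.41 and 0.22. The *SAA2* cluster had a mean signal of 5.61, below the median of 6.28 over all clusters, and 1 of its 8 probes is annotated as direct. Its unadjusted p was 0.0359 by limma and 0.0704 by exact permutation of the cows between the groups. *HP* had a larger difference, 1.72, and a larger standard error, 0.85 (adjusted p = 0.685 by limma). *SOCS3*, an inhibitor of interleukin 6 signaling, gave 0.29 and the receptor *IL6R* -0.17 (adjusted p = 0.691 and 0.689 by limma). *HP*, *SAA2* and *SAA4* are genes that the study names from these cows, so they are no independent evidence of a direction.

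**Figure D3:**
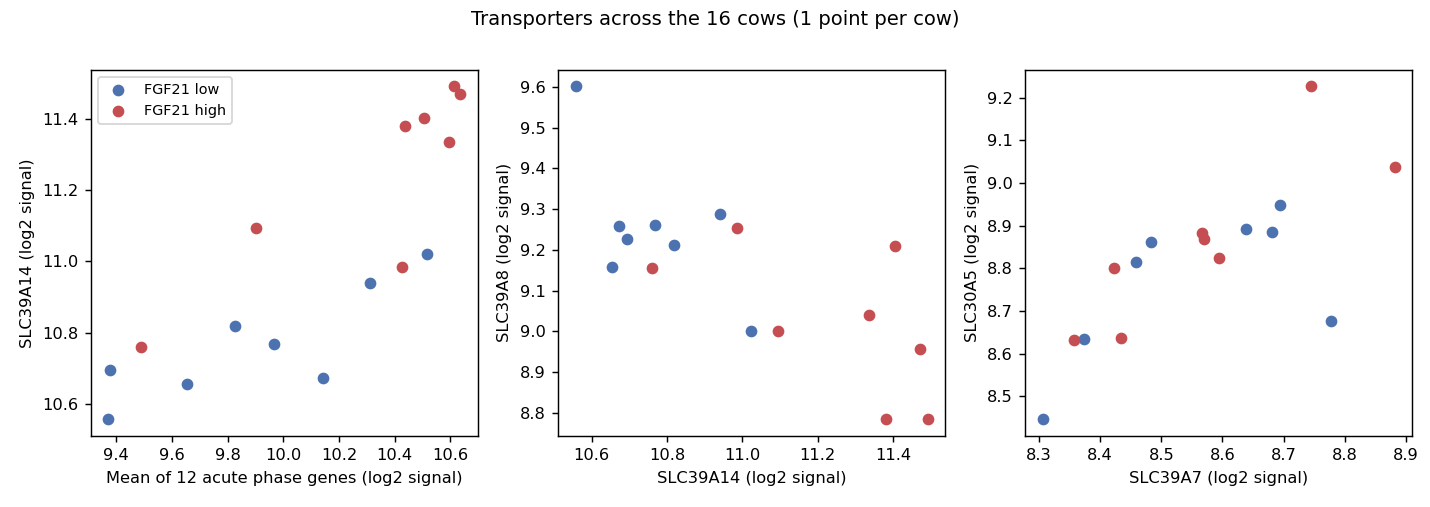
Log2 signal in each of the 16 cows (blue, *FGF21* low group; red, *FGF21* high group): *SLC39A14* against the mean of 12 acute phase genes, *SLC39A8* against *SLC39A14*, and *SLC30A5* against *SLC39A7*. The first and the last pair run upwards within both groups (r = 0.86 and 0.83, r = 0.85 and 0.61 in the *FGF21* high and low group), and *SLC39A8* runs downwards (r = -0.59 and -0.66).

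Pairs of transporters were also set against each other within the groups, in comparisons added after the data were seen. Of 44 pairs among the 10 genes, besides the one given above, r had the same sign in both groups in 32 and exceeded 0.5 in size with the same sign in 6. None of the 96 relations passed after adjustment for all 96, with lowest adjusted values of 0.267 for r and 0.214 for ρ, and 8 had an exact permutation p under 0.05 for r. *SLC39A8* ran against *SLC39A14* within the groups, in the direction of their difference between the groups, with r = -0.59 in *FGF21* high cows and -0.66 in *FGF21* low cows (ρ = -0.64 and -0.33, exact permutation p = 0.121 and 0.0679 for r, 0.0962 and 0.428 for ρ, r = -0.25 and -0.67 without 2 cows). With *SLC30A10*, *SLC39A8* had r = 0.68 in *FGF21* high cows and 0.45 in *FGF21* low cows (ρ = 0.86 and 0.43, exact permutation p = 0.0139 and 0.262 for r, 0.0107 and 0.299 for ρ, r = 0.54 and 0.09 without 2 cows). *SLC39A7* and *SLC30A5*, of the ER and the Golgi apparatus, ran together, with r = 0.85 and 0.61 (ρ = 0.86 and 0.62, exact permutation p = 0.00719 and 0.110 for r, 0.0107 and 0.115 for ρ, r = 0.90 and 0.86 without 2 cows). *SLC39A1* joined *SLC30A5* in *FGF21* low cows with r = 0.79 and ρ = 0.93 (exact permutation p = 0.0220 and 0.00223, r = 0.95 without replicates 1 and 2), whereas in *FGF21* high cows its r of 0.52 (ρ = 0.31, exact permutation p = 0.194 and 0.462) turned to -0.44 without replicates 1 and 6. The cows left out for this pair are those of the 4 arrays with the widest spread. The lowest p for r of all 96 belonged to a pair whose sign differed between the groups, *SLC39A5* with *SLC39A7*. It had r = -0.85 in *FGF21* high cows (ρ = -0.64, exact permutation p = 0.00714 and 0.0962, adjusted p = 0.267 and 0.613, r = -0.60 without 2 cows) and r = 0.47 in *FGF21* low cows (ρ = 0.60, exact permutation p = 0.243 and 0.132, r = 0.66 without 2 cows). *SLC39A4* and *SLC39A1* ran against each other in the *FGF21* high and low group, with r = -0.68 and -0.60 (exact permutation p = 0.0659 and 0.115, r = -0.70 and -0.39 without 2 cows). *SLC39A1* and *SLC39A7* had r = 0.54 and 0.63 (exact permutation p = 0.164 and 0.0794, r = -0.67 and 0.43 without 2 cows).

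*SLC39A5* and *SLC39A10* also ran against each other, with r = -0.61 and -0.73 (ρ = -0.81 and -0.62, exact permutation p = 0.123 and 0.0407 for r, 0.0218 and 0.115 for ρ, r = -0.71 and -0.30 without 2 cows). Both went with the running number that the labels give the samples. *SLC39A10* had r = -0.60 and -0.58 with that number in the *FGF21* high and low group (ρ = -0.48 and -0.76, exact permutation p = 0.107 and 0.126 for r, 0.243 and 0.0368 for ρ, r = -0.73 and -0.12 without 2 cows). *SLC39A5* had r = 0.45 and 0.76 (ρ = 0.14 and 0.62, exact permutation p = 0.269 and 0.0337 for r, 0.752 and 0.115 for ρ, r = 0.16 and 0.23 without 2 cows). What the running number stands for is not stated, and its part in the relation of the genes was not tested.

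**Figure D4:**
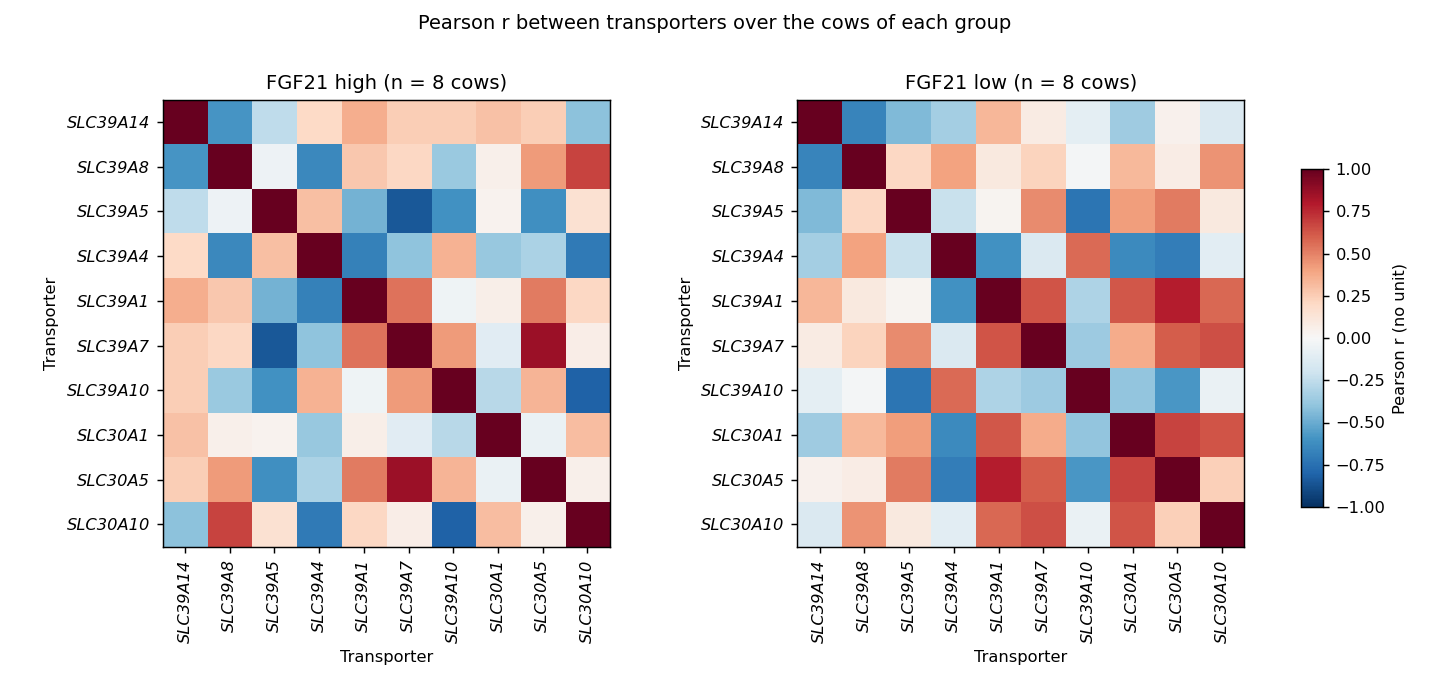
Pearson r between the log2 signals of the 10 transporters over the 8 *FGF21* high cows (left) and the 8 *FGF21* low cows (right), on a colour scale from -1 to 1. The red square of *SLC39A7* with *SLC30A5* (0.85 and 0.61) and the blue squares of *SLC39A14* with *SLC39A8* (-0.59 and -0.66) and of *SLC39A5* with *SLC39A10* (-0.61 and -0.73) recur in both groups. So do the blue square of *SLC39A4* with *SLC39A1* (-0.68 and -0.60) and the red squares of *SLC39A1* with *SLC39A7* (0.54 and 0.63) and with *SLC30A5* (0.52 and 0.79).

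Over all named genes of the array, after subtraction of each group's mean, *HAPLN3*, which encodes a hyaluronan link protein, was most like *SLC39A14*, with r = 0.92 over the 16 cows (0.95 in *FGF21* high and 0.87 in *FGF21* low cows). It was followed by the folate receptor gene *FOLR3* (0.86), *KBTBD6* (0.86), the integrin gene *ITGA9* (0.86) and *RAP1GAP* (0.85), an inactivator of the small GTPase RAP1. Between the groups, *HAPLN3* had a log2 difference of 0.50 and *FOLR3*, next in likeness, one of 0.08. Among the genes most like *SLC30A1* were *SOCS4* (0.88), *SNTB2* (0.86), the phospholipid acyltransferase gene *LPCAT3* (0.85) and the tubulin gene *TUBA4A* (0.85). For these 4, r was 0.90 to 0.97 in *FGF21* low cows and 0.47 to 0.63 in *FGF21* high cows, in which *SLC30A1* hardly varied. Their own log2 differences between the groups were -0.02 to 0.04, against 0.28 for *SLC30A1*. These are the highest values out of a whole array and carry no test.

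Among further genes of manganese and iron, of which 11 of 12 listed had a cluster, 1 was higher and 1 lower at an unadjusted p under 0.05 by limma. The shares over all clusters were 2.89 percent higher and 4.52 percent lower. *HAMP*, which encodes the iron hormone hepcidin, had a log2 difference of 0.32 (standard error 0.13, adjusted p = 0.628 by limma). *ARG1*, the manganese-dependent arginase of the urea cycle, had one of -0.51 (standard error 0.16, adjusted p = 0.484 by limma). The iron exporter *SLC40A1* (0.09), the importer *SLC11A2* (0.07) and the Golgi manganese pump *ATP2C1* (0.06) had adjusted p values of 0.883 to 0.925 by limma. The median of the list was 0.06.

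Cell type markers were measured beside these differences. For comparison, 2.89 percent of all clusters were higher and 4.52 percent lower at an unadjusted p under 0.05 by limma. The 7 endothelial markers with a cluster, of 9 listed, all had a positive difference (0.10 to 0.38, 2 of them at an unadjusted p under 0.05 by limma), and their mean log2 signal was 8.17 to 8.45 in *FGF21* high cows and 7.96 to 8.34 in *FGF21* low cows. The 8 markers of Kupffer cells and macrophages were also all positive (0.05 to 0.24, 1 at an unadjusted p under 0.05, mean signal 8.89 to 9.50 and 8.83 to 9.26), and the 7 of stellate cells and fibroblasts all negative (-0.37 to -0.01, 1 at an unadjusted p under 0.05, mean signal 6.87 to 7.43 and 6.83 to 7.63). The 8 hepatocyte markers had a mean signal of 12.35 to 12.57 and 12.41 to 12.58, with 7 of 8 differences negative, among them that of *APOA1*, an apolipoprotein, at -0.31 (unadjusted p under 0.05, adjusted p = 0.637 by limma). The positive one, *FGB* (0.10), is also in the acute phase list. The study counts albumin, the product of the marker *ALB*, as a negative acute phase protein. The signs of this list are therefore no measure of hepatocyte number alone. Of the 7 leukocyte markers, 5 were positive, and *S100A12*, a protein of neutrophils, had a difference of 0.51 (standard error 0.14), with the lowest adjusted p of all cell type markers, 0.382 by limma. *S100A8* and *S100A9*, of the same list, gave 0.13 and 0.07 (adjusted p = 0.840 and 0.866 by limma). Leukocyte markers (7 of 7 measured, 6.03 to 6.56 and 6.08 to 6.51), biliary markers (6 of 6, 5.50 to 6.13 and 5.63 to 6.01) and erythroid markers (5 of 6, 5.16 to 5.65 and 5.35 to 5.71) overlapped between the groups in their mean signal, and 0 markers of any list passed after adjustment by limma. After subtraction of each group's mean, the mean signal of a marker list had an r beyond 0.49 in size with a transporter in 4 of 70 cases over the 16 cows, given as a description. *SLC39A14* had r = 0.67 with the erythroid list and -0.50 with the endothelial list, *SLC39A5* had 0.52 with the hepatocyte list and *SLC39A10* had 0.52 with the Kupffer list. The other 66 lay between -0.45 and 0.43. In every cow, the mean signal of the erythroid list lay below 6.28, the median over all clusters. The part of these cells in the differences of the transporters was not tested. Median signals of the arrays lay between 6.25 and 6.34. RNA integrity per cow is not used here.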

How the data were processed

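Liver RNA of 16 cows was measured on 1 Affymetrix whole-transcript array per cow. The authors' service provider made the deposited log2 signals in Affymetrix Expression Console 1.4 by RMA after a signal space transformation, that is, background correction, quantile normalization and probe summary. Rounding to 2 decimals apart, the deposited value table holds the same signals. The sheet's group means, fold changes and p-values were not used. The build of the array annotation was not given in the sources read. With arrays, precision is limited by the number of cows.

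Groups and replicate numbers came from the sample titles. Each cluster was fitted in limma 3.58.1 under R 4.3.3 (group as the only term, moderated variances, no filter), checked on simulated data, with p adjusted over all 20421 clusters by the method of Benjamini and Hochberg at 0.05. Intervals are limma's 95% intervals without adjustment. The study's criteria, a fold change of 1.2 and a p under 0.05, were applied to limma's unadjusted p. Relations within a group were tested by exact permutation of all 40320 pairings, two-sided, in Python 3.11.15 with scipy 1.17.1. Signals of different genes come from different probes and are not compared.

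Genes named are the 10 transporters, further family genes at the ends of the range or crossing the threshold in a setting, genes of the zinc, manganese and iron, and acute phase lists with an unadjusted p under 0.05 (*MTF1*, *SOCS3*, *IL6R*, *SAA3*, *CRP*, *FGB*, *ALB*, *SLC40A1*, *SLC11A2*, *ATP2C1*, *APOA1*, *S100A8*, *S100A9* and *S100A12* were added after their values were seen), and the 5 genes most like *SLC39A14* and *SLC30A1*. 1 of the latter is not reported here. Members and lists were chosen with earlier results of these data known. Alternatives were other tests, weights, normalizations and filters, the rounded table, the running number as a covariate, a block for the replicate number, and leaving out cows. Nothing in the labels says that equal replicate numbers mark related cows.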

Additional observations from a re-analysis of the deposited data

Results flagged for a closer look

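*SLC39A5* was flagged because 1 cow lay far from its group, with high replicate 1 at 8.26 and the other 7 cows of the *FGF21* high group between 8.49 and 8.68. *SLC30A10* was flagged for the same reason, with high replicate 3 at 8.56 and the others between 8.96 and 9.11. In 22 groups of 8 cows, over the 11 clusters of the 10 genes, these were the 2 flags. Chance flags about 1 in 20 groups. High replicate 1 was also the cow with the highest *SLC39A7* (8.88) and *SLC39A1* (8.03) of its group.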

How the results depend on the processing

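In all settings run, 2 of the 10 genes (*SLC39A14* and *SLC30A1*) were higher and 1 (*SLC39A8*) was lower at an unadjusted p under 0.05, and the number past the adjusted threshold was 0 except without high replicate 2, where *SLC39A14* passed (0 to 1 over the 16 fits that left out 1 cow). Over all 23 family genes, these fits gave 2 to 2 higher, 1 to 2 lower and 0 to 1 past the adjusted threshold. The number above a fold change of 1.2 fell to 1 without the 4 widest arrays, left out by a choice that followed a look at the data, and was 1 to 2 over the fits that left out 1 cow, with 1 without low replicate 1 or low replicate 8. *SLC30A1* was the gene that dropped out (0.24 without the 4 arrays). Over the settings other than leaving out 1 cow, the adjusted p was 0.123 to 0.635 for *SLC39A14*, 0.329 to 0.765 for *SLC30A1* and 0.424 to 0.816 for *SLC39A8*.

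Directions turned only in genes that never passed. With the running number as a covariate, *SLC39A5* gave 0.014 and *SLC39A10* -0.019, and without the 4 arrays *SLC39A7* gave -0.080 and *SLC30A5* -0.031. Leaving out 1 cow gave -0.025 to 0.052 for *SLC39A7* and -0.0050 to 0.083 for *SLC30A10*. The relation of *SLC39A14* with *HP* in the *FGF21* high group went from 0.79 to -0.13 without replicates 2 and 7. The causes were not tested. With the replicate number as a block, the differences kept their values and 2 genes were higher, 1 lower and 0 past the adjusted threshold (*SLC39A14* adjusted p = 0.253). Same-numbered cows deviated from their group means with correlations of -0.21 to 0.13. Differently numbered cows were not compared in this way, so these values cannot settle whether the numbers pair the cows. *SLC39A4* has no value under the filter on low signals, because its mean signal lay below the median.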
